A study of Saccharomyces cerevisiae with 4 samples.

Results

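The cytosolic chaperones and co-chaperones of budding yeast were followed here as 37 named genes, grouped by function, and all 37 were measured among the 5449 Saccharomyces cerevisiae genes of the table. They comprise an Hsp70 group of 10 genes, an Hsp90 group of 10, a group of 5 for the disaggregase, a small heat shock protein and protein sorting, 4 ribosome-bound chaperones and the 8 subunits of the chaperonin. The series compared cells that carry dis3E729K, a missense allele of DIS3, with wild-type cells, in 2 cultures of each genotype and 1 Affymetrix array per culture. DIS3 encodes a ribonuclease of the RNA exosome. Per the labels all strains had the BY4741 background, both genotypes carried URA3 next to DIS3, and cells grew at 30 °C in drop-out medium to mid-log phase, and no heat shock is described.

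Chaperones bind proteins that are not folded, keep them from aggregating and release them for folding. In the cytosol Hsp70 proteins do this in cycles of ATP binding and hydrolysis, in which J-proteins deliver clients and stimulate hydrolysis and nucleotide exchange factors release them, and some clients pass on to Hsp90. The disaggregase Hsp104 pulls proteins out of aggregates, small heat shock proteins hold misfolded proteins in them, and the ribosome-bound chaperones and the ring-shaped chaperonin act on newly made proteins. In yeast the heat shock factor Hsf1 drives many chaperone genes, and the general stress factors Msn2 and Msn4 drive some of them.

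The arrays were not all of 1 strain type. Both replicate 1 arrays carried high signal of genes that a-type cells express, and both replicate 2 arrays of genes that alpha-type cells express. STE2, the receptor for alpha factor, read 12.58 and 12.26 on the replicate 1 arrays of dis3E729K and wild type, and 6.81 and 7.01 on their replicate 2 arrays. All 6 a-cell genes and all 5 measured alpha-cell genes of the marker lists split the arrays this way. BY4741 is a strain of mating type a that lacks MET17, a gene of methionine synthesis, and MET17 read 3.37 and 3.47 in dis3E729K against 3.22 in wild type replicate 1 and 9.55 in wild type replicate 2. These values go against the labelled background for the replicate 2 cultures, so results below are also given within each replicate number or without single arrays. The replicate 2 cultures of the 2 genotypes also differed from each other in MET17. Neither the replicate 2 differences nor a block on the replicate number can separate genotype from that strain difference. DIS3 itself read 11.49 and 11.12 in dis3E729K, against 11.65 and 11.82 in wild type.

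Array values are log2 intensities, so a difference of 1 is a 2-fold difference, and levels of different genes cannot be compared because each has its own probes. The lowest value of any chaperone gene on any array was 8.26, above the background of 4.06 set from probe sets of the other yeast species on the array. The 2 arrays of a genotype differed by a median of 0.20 in dis3E729K and 0.13 in wild type over the 37 genes, against 0.21 and 0.14 over all genes. Array controls for ribosomal RNA read higher in dis3E729K than in wild type without overlap for 17 of 17 probe sets (median difference 0.42), and the 5' to 3' signal balance did so for 6 of 8 control transcripts of yeast (median difference 0.20). The part of either in the differences below was not tested, and 4 arrays limit the precision of every value.

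In dis3E729K cells 9 chaperone genes rose and 0 fell, and 5 of the 9 were still called with the replicate number as a block. The genes that rose were HSP42, BTN2, CUR1 and HSP104 of the aggregate-handling group, APJ1, SIS1, FES1 and SSA1 of the Hsp70 group, and HSP82 of the Hsp90 group, with rises between 1.53-fold for SSA1 and 5.46-fold for HSP42. The 4 ribosome-bound chaperones and the 8 chaperonin subunits held no gene that passed the test. In limma's test, at a Benjamini-Hochberg adjusted p under 0.05 over all genes, 24.3% of the 37 genes were called higher, against 7.71% of all genes tested, and 0 were called lower, against 8.15% of all genes. The genes were listed with earlier results of these data known, so their share is a description and no independent evidence. At an unadjusted p under 0.05, 11 of the 37 were higher and 1, HSP31, was lower, where 18.1% and 22.6% of all genes were. Both mutant arrays lay above both wild-type arrays for 16 of the 37, 43.2%, against 32.3% of all genes, and below for 7, 18.9%, against 41.8%. The median log2 difference over the 37 genes was 0.10, and over all genes tested it was -0.07. Within the replicate numbers the median over the 37 was 0.19 (replicate 1, with 29 genes above 0) and -0.02 (replicate 2, with 18 genes above 0). Over all 5449 genes it was -0.04 (replicate 1, with 2519 above 0) and -0.11 (replicate 2, with 2381 above 0). The 9 genes that rose were above 0 in both replicate numbers, which follows from their groups not overlapping and is no separate evidence.

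**Figure D1:**
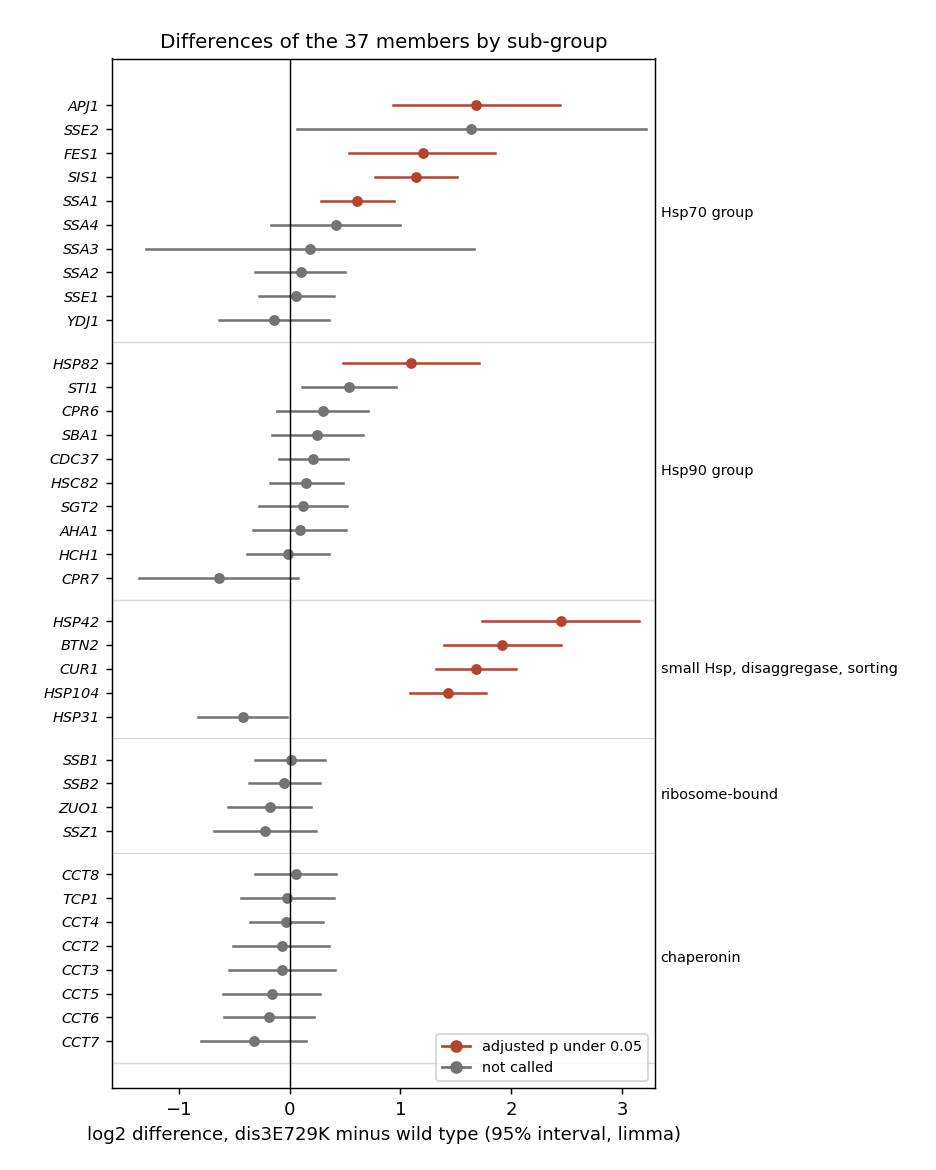
Log2 difference, dis3E729K minus wild type, of each of the 37 genes (points) with limma's 95% interval (lines), ordered by size within 5 sub-groups. Red marks the 9 genes called higher, which run from 0.61 for SSA1 to 2.45 for HSP42, and the ribosome-bound and chaperonin genes lie close to 0.

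The calls rested on the fit and on single arrays. Same-numbered arrays shared their mating type genes, and with the replicate number as a block 5 of the 37 genes were called higher (HSP42, BTN2, CUR1, HSP104 and APJ1), against 3.65% of all genes. The other 4 lost their calls under the block, with limma's adjusted p at 0.0516 for SIS1, 0.0637 for HSP82, 0.0644 for FES1 and 0.11 for SSA1. Without dis3E729K replicate 2, limma called 0 of the 37 higher and 0% of all 5449 genes, with 7 of the 37 and 12.7% of all genes higher at an unadjusted p under 0.05. Without wild type replicate 2, it called 0 of the 37 and 0.165% of all genes higher, with 10 of the 37 and 12.3% of all genes higher at an unadjusted p under 0.05. Without dis3E729K replicate 1, APJ1, BTN2, CUR1 and HSP104 were called higher, 4 of the 37 against 5.8% of all genes. Without wild type replicate 1, 6 were, against 3.01% of all genes: BTN2, CUR1, HSP104, HSP42, FES1 and SSE2. In these fits 1 group is left with 1 array, whose spread is taken to be like that of the other. For each of the 9 genes both mutant arrays lay above both wild-type arrays, so leaving out 1 array could not change a direction. The smallest of their differences in these fits was 0.57, that of SSA1 without wild type replicate 2.

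Of the 5 genes for proteins that disaggregate, hold, sort or otherwise chaperone misfolded proteins 4 rose, against 7.71% of all genes, and their median difference was 1.68. HSP42, a small heat shock protein that gathers misfolded proteins into cytosolic deposits, read 13.15 and 13.48 in dis3E729K, against 11.16 and 10.58 in wild type. The groups stood far apart, by 2.45 ± 0.26 (log2 difference ± SE, adjusted p = 0.0335 in limma's test), and HSP42 ranked 68 among the 5449 genes by its difference. The gap between the genotypes was 1.99 on the replicate 1 arrays and 2.90 on the replicate 2 arrays, since wild type replicate 2 was the lowest and dis3E729K replicate 2 the highest of the 4.

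BTN2 and CUR1 are related genes whose products sort misfolded proteins between nuclear and cytosolic deposits. BTN2 read 12.58 and 12.85 in dis3E729K, against 10.61 and 10.98 in wild type, and rose by 1.92 ± 0.19 (SE). CUR1 read 9.99 and 10.05 in the mutant, against 8.26 and 8.43 in wild type, and rose by 1.68 ± 0.13. Both had an adjusted p of 0.0335 in limma's test, and both differed nearly alike within the replicate numbers, by 1.97 and 1.87 for BTN2 and by 1.73 and 1.63 for CUR1.

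HSP104, the disaggregase, read 13.08 and 13.19 in dis3E729K, against 11.76 and 11.67 in wild type. It rose 2.69-fold, by 1.43 ± 0.12 (SE, adjusted p = 0.0335 in limma's test), and the 2 arrays of each genotype lay within 0.11 of each other. HSP31, of the DJ-1 family and a chaperone as well as an enzyme that removes methylglyoxal, went the other way: it read 9.72 and 9.79 in the mutant, against 10.31 and 10.05 in wild type. Its difference of -0.42 had a 95% interval from -0.83 to -0.02 and did not pass (adjusted p = 0.114 in limma's test).

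**Figure D2:**
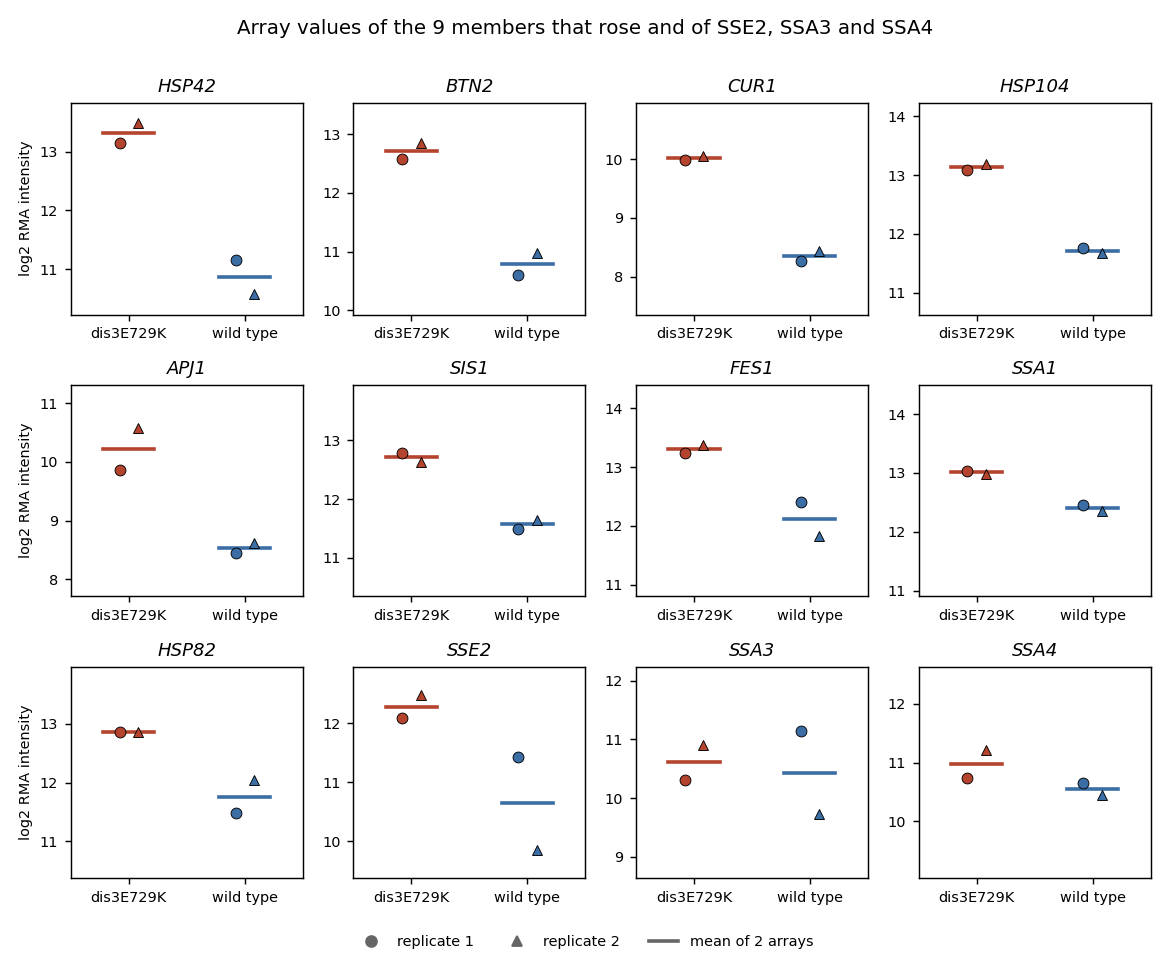
Log2 RMA intensity on each array (circle, replicate 1; triangle, replicate 2; bar, mean of 2 arrays) for dis3E729K and wild type, with the same span on every vertical axis. The 9 genes that rose have both mutant arrays above both wild-type arrays, while SSE2 and SSA3 differ most between the 2 wild-type cultures.

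In the Hsp70 group 4 of 10 genes rose, against 7.71% of all genes, and their roles differ. SSA1, 1 of the 4 Hsp70 proteins of the SSA family, read 13.04 and 12.99 in dis3E729K, against 12.45 and 12.36 in wild type. This was the smallest of the 9 rises, 0.61 ± 0.12 (log2 difference ± SE, adjusted p = 0.0453 in limma's test). Its near-identical paralogue SSA2 read 13.96 and 13.69 in the mutant, against 13.75 and 13.70 in wild type, and the groups overlapped. SSA2 differed by 0.10, with a 95% interval from -0.31 to 0.50. Probes for the SSA genes may bind transcripts of each other, which was not tested.

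The stress-inducible Hsp70 genes did not pass. SSA4 read 10.73 and 11.21 in dis3E729K, against 10.66 and 10.45 in wild type, a difference of 0.42 with an interval from -0.17 to 1.00. SSA3 read 10.31 and 10.91 in the mutant, against 11.14 and 9.73 in wild type. The wild-type cultures held both the highest and the lowest SSA3 value, and the mutant was lower by 0.83 on the replicate 1 arrays and higher by 1.18 on the replicate 2 arrays.

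Among the J-proteins, SIS1 and APJ1 rose and YDJ1 did not. SIS1, an essential J-protein that brings misfolded and aggregated clients to Hsp70, read 12.79 and 12.63 in dis3E729K, against 11.50 and 11.64 in wild type, a rise of 1.14 ± 0.14 (SE, adjusted p = 0.0337 in limma's test). APJ1, a J-protein of low abundance, read 9.86 and 10.57 in the mutant, against 8.45 and 8.62 in wild type, and rose by 1.68 ± 0.28 (adjusted p = 0.0395). YDJ1, the most general J-protein of the cytosol, read 13.18 and 12.80 in the mutant, against 13.04 and 13.22 in wild type, with an interval of its difference from -0.64 to 0.36. The interval of YDJ1 lay below those of SIS1, from 0.77 to 1.51, and APJ1, from 0.93 to 2.44.

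The exchange factors were likewise split. FES1, which releases misfolded clients from Hsp70, read 13.24 and 13.38 in dis3E729K, against 12.41 and 11.82 in wild type, and rose by 1.20 ± 0.24 (SE, adjusted p = 0.0470 in limma's test). SSE1, the main Hsp110 exchange factor, read 13.27 and 13.18 in the mutant, against 13.23 and 13.11 in wild type, and its interval ran from -0.28 to 0.40. SSE2, its inducible paralogue, read 12.09 and 12.48 in the mutant, against 11.43 and 9.85 in wild type. Its difference of 1.64 came next to that of APJ1 in size within the group but did not pass (adjusted p = 0.114), since the wild-type cultures lay 1.59 apart. Without wild type replicate 1, SSE2 differed by 2.44 and passed with an adjusted p of 0.0335 in limma's test, and without wild type replicate 2 it differed by 0.85 with an adjusted p of 0.156.

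SSE2, SSA3, FES1 and HSP42 were the 4 chaperone genes furthest below wild type replicate 1 in wild type replicate 2, with differences between those arrays of -1.59, -1.41, -0.60 and -0.58. Stress genes outside the group did the same: HSP12, a membrane-associated stress protein, read 11.21 and 14.04 in dis3E729K, against 13.62 and 11.70 in wild type, and HSP26, a small heat shock protein, read 11.24 and 13.00 in the mutant, against 13.68 and 10.76 in wild type. Neither passed (differences of -0.03 and -0.10, adjusted p of 0.984 and 0.956 in limma's test), and both were lower in the mutant on the replicate 1 arrays and higher on the replicate 2 arrays. Of the other genes that rose, HSP104 and SSA1 differed by -0.09 each between the wild-type arrays, and HSP82, BTN2, CUR1, APJ1 and SIS1 were higher in wild type replicate 2 than in wild type replicate 1, by 0.56, 0.37, 0.17, 0.16 and 0.15.

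**Figure D3:**
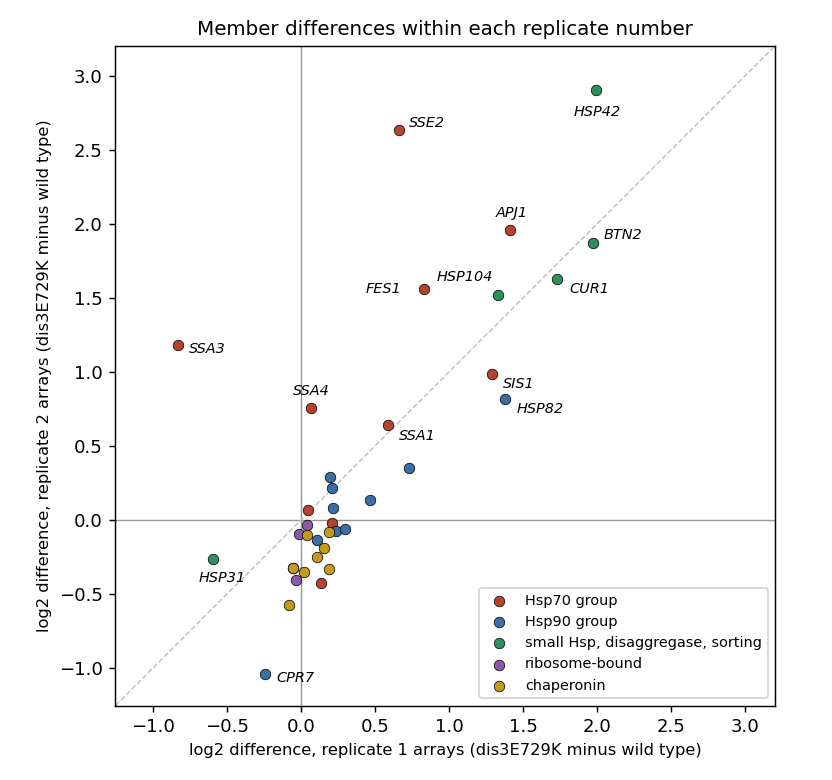
Log2 difference, dis3E729K minus wild type, of each of the 37 genes within replicate 1 (horizontal axis) and within replicate 2 (vertical axis), coloured by sub-group, with equal differences on the dashed line. HSP104, BTN2, CUR1 and SSA1 lie near the line, SSE2 and SSA3 lie far above it, and all 8 chaperonin subunits lie below 0 on the vertical axis.

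In the Hsp90 group 1 of 10 genes passed, HSP82, a share near the 7.71% of all genes. HSP82, the heat-inducible Hsp90, read 12.86 on both arrays of dis3E729K, against 11.48 and 12.04 in wild type, a rise of 1.10 ± 0.22 (SE, adjusted p = 0.0478 in limma's test). Its adjusted p was the highest of the 9. HSC82, the constitutive Hsp90, read 13.59 and 13.53 in the mutant, against 13.37 and 13.45 in wild type, with a difference of 0.15 and an interval from -0.18 to 0.48.

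STI1, which bridges Hsp70 and Hsp90, read 13.02 and 12.93 in dis3E729K, against 12.29 and 12.58 in wild type, and came nearest to passing among the 28 genes not called (0.54 ± 0.16, adjusted p = 0.0805 in limma's test). The cyclophilins CPR6 and CPR7, both of which bind Hsp90, lay on opposite sides of zero. CPR6 read 12.33 and 12.27 in the mutant, against 11.86 and 12.14 in wild type, a difference of 0.30. CPR7 read 10.46 and 9.78 in the mutant, against 10.69 and 10.83 in wild type, and its difference of -0.64 had an interval from -1.36 to 0.08. CPR7 had the lowest difference of the 37 genes, and dis3E729K replicate 2 was the array that set it apart.

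The other 5 Hsp90 co-chaperones lay closer to zero. SBA1, the yeast p23, differed by 0.25, CDC37, which brings kinases to Hsp90, by 0.21, SGT2, which hands tail-anchored proteins to the GET pathway, by 0.12, and AHA1 and HCH1, which activate the ATPase of Hsp90, by 0.09 and -0.01. CDC37 and SBA1 had both mutant arrays above both wild-type arrays, as did 32.3% of all genes. The groups overlapped for SGT2, AHA1 and HCH1. The widest interval of these 5 was that of AHA1, from -0.33 to 0.51.

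The 4 ribosome-bound chaperones had the narrowest range of differences of the 5 sub-groups, from -0.22 to 0.01. SSB1 and SSB2, near-identical Hsp70 proteins that bind nascent chains, read 14.22 and 14.17, and 13.92 and 13.85, in dis3E729K, against 14.17 and 14.20, and 13.93 and 13.94, in wild type. The probe set kept for SSB1 is marked as cross-hybridising, so its signal may include SSB2. SSZ1 and ZUO1, which form the ribosome-associated complex, differed by -0.22 and -0.18, with intervals from -0.68 to 0.24 and from -0.56 to 0.19. SSB2, SSZ1 and ZUO1 had both mutant arrays below both wild-type arrays, as did 41.8% of all genes. On the replicate 1 arrays the difference of these 3 was no larger in size than 0.05. Such bright genes may be compressed on arrays, which was not measured.

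The 8 genes of the chaperonin, which folds actin and tubulin, gave a median difference of -0.07, from -0.32 for CCT7 to 0.06 for CCT8. Mutant values lay between 11.27 and 12.87, and wild-type values between 11.41 and 12.91. For all 8 the value in dis3E729K replicate 1 exceeded that in dis3E729K replicate 2, as it did for 2987 of the 5449 genes. The difference was above 0 for 6 of the 8 on the replicate 1 arrays and for 0 of the 8 on the replicate 2 arrays. Of the 5449 genes, 2519 and 2381 were above 0 on these arrays. CCT7 read 12.08 and 11.72 in the mutant, against 12.16 and 12.28 in wild type, and did not pass (adjusted p = 0.232 in limma's test). The intervals of the 8 together spanned -0.80 to 0.42, so a rise of the size seen for SSA1, 0.61, lies outside each of them. Changes within the intervals could not be resolved with 4 arrays.

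Paralogues within these families were compared on each array, since the difference between 2 genes on 1 array does not depend on a common scaling of that array. A step that depends on brightness need not cancel in this way. HSC82, SSA2 and SSE1 gave the brighter signal of their pairs, and compression of bright genes was not measured. HSP82 minus HSC82 was -0.73 and -0.67 in dis3E729K, against -1.89 and -1.41 in wild type, so the balance moved towards HSP82 by 0.95. SSA1 minus SSA2 was -0.92 and -0.69 in the mutant, against -1.30 and -1.34 in wild type, a shift of 0.52 towards SSA1. These are changes of a ratio, since the level of 1 gene cannot be set against that of the other. As with the SSA genes, probes for HSP82 and HSC82 may bind transcripts of each other, which was not tested.

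SSE2 minus SSE1 was -1.18 and -0.70 in dis3E729K, against -1.79 and -3.26 in wild type. This was the widest shift of the 8 pairs, 1.59, but it was 0.61 on the replicate 1 arrays and 2.56 on the replicate 2 arrays. CPR6 minus CPR7 was 1.87 and 2.49 in the mutant, against 1.17 and 1.31 in wild type, a shift of 0.94. For BTN2 and CUR1, which both rose, the shift was 0.24 within either replicate number.

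The remaining 3 pairs shifted by 0.05 (SSB1 minus SSB2), 0.10 (AHA1 minus HCH1) and 0.24 (SSA4 minus SSA3), and the groups overlapped for the last 2. In an exact two-sided permutation test over the 4 arrays the p was 0.333 for the 6 pairs whose groups did not overlap, which is the smallest p that 2 against 2 arrays can give, so none of the shifts could pass a threshold.

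**Figure D4:**
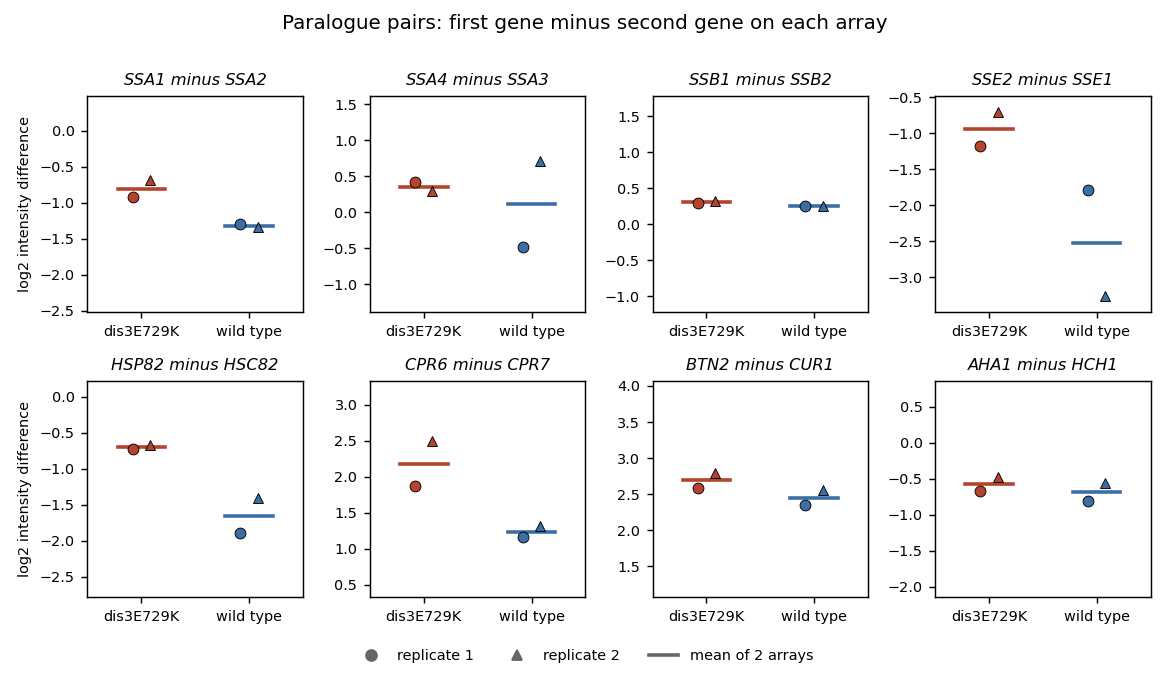
First gene minus second gene on each array, in log2 units, for 8 pairs of related genes (circle, replicate 1; triangle, replicate 2; bar, mean of 2 arrays), with the same span on every vertical axis. The mutant arrays lie above the wild-type arrays for HSP82 minus HSC82, SSA1 minus SSA2, SSE2 minus SSE1 and CPR6 minus CPR7, while SSB1 minus SSB2 barely moves.

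Other genes of cytosolic folding and quality control, and their regulators, were listed by function. Of 47 measured, 1 rose, 2.13% against 7.71% of all genes, and 3 fell, 6.38% against 8.15%, with a median difference of -0.10. The 3 that fell were J-proteins, of 8 genes listed as other J-proteins and Hsp70 helpers. JJJ3, which acts in diphthamide synthesis, read 7.39 and 6.04 in dis3E729K, against 9.64 on both wild-type arrays (-2.92 ± 0.48, SE, adjusted p = 0.0395 in limma's test). JJJ1, which works with Hsp70 in maturation of the large ribosomal subunit, read 8.73 and 8.64 in the mutant, against 9.81 and 10.07 in wild type (-1.26 ± 0.15, adjusted p = 0.0337). JJJ2 fell by 0.71 ± 0.12 (adjusted p = 0.0399). With the replicate number as a block JJJ2 lost its call (adjusted p = 0.0867 in limma's test), and JJJ1 and JJJ3 kept theirs. The J-protein genes called thus lay on both sides, with SIS1 and APJ1 higher and JJJ1, JJJ2 and JJJ3 lower. YDJ1 and the rest of this list were not called.

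Prefoldin, which delivers actin and tubulin to the chaperonin, and a chaperonin cofactor made up a list of 7 measured genes. All 7 had differences below 0, as did 3016 of the 5449 genes, and their median was -0.57. Both mutant arrays lay below both wild-type arrays for 6 of the 7, and for 41.8% of all genes. The median was -0.31 on the replicate 1 arrays and -0.92 on the replicate 2 arrays. For all 7 the value in dis3E729K replicate 1 exceeded that in dis3E729K replicate 2, as it did for 2987 of the 5449 genes. In limma's test 0 passed after adjustment, and 5 were lower at an unadjusted p under 0.05, where 22.6% of all genes were. GIM4 came nearest, at 10.54 and 9.97 in dis3E729K, against 11.23 and 11.22 in wild type (-0.97 ± 0.23, SE, adjusted p = 0.0586). PFD1 differed by -0.73, YKE2 by -0.71 and GIM3 by -0.55. In the chaperonin itself the median was -0.07.

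Of 8 measured regulators 1 rose, a share near the 7.71% of all genes. This was TPK2, by 1.67 ± 0.29 (SE, adjusted p = 0.0412 in limma's test), and it lost its call with the replicate number as a block (adjusted p = 0.0561). It encodes a catalytic subunit of protein kinase A, which holds back the general stress response. HSF1, the gene of the heat shock factor, read 9.94 and 9.99 in dis3E729K, against 10.24 and 10.15 in wild type, a difference of -0.23 with an interval from -0.56 to 0.10. MSN4 differed by 0.81 (adjusted p = 0.0858), RPN4, the activator of proteasome genes, by 0.76 (adjusted p = 0.107) and TPK3 by -1.10 (adjusted p = 0.0547). Transcript levels say nothing of the activity of these factors.

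In the list for cytosolic quality control 0 of 7 passed in limma's test, and 3 had an unadjusted p under 0.05 with a higher value and 1 with a lower one, where 18.1% and 22.6% of all genes did. UBI4, the stress-induced polyubiquitin gene, read 12.65 and 13.00 in dis3E729K, against 12.04 and 11.54 in wild type (1.03 ± 0.24, adjusted p = 0.0565). UFD4 differed by -0.55 and HUL5 by 0.54, both ubiquitin ligases, and CDC48 by 0.40. Among 5 partners of SGT2 in the GET pathway, MDY2 differed by 0.60 (adjusted p = 0.0556), and the others lay between -0.08 and 0.13. The 6 other Hsp90 co-chaperones and assembly factors had a median of -0.14, the 3 nascent chain factors a median of -0.21, and the list with HSP12 and HSP26 a median of -0.10, and 0 genes of these lists passed limma's test, with 0 under 0.05 by the unadjusted p as well.

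Chaperones of other compartments were counted in the same test. Of 9 mitochondrial chaperone genes 1 rose, HSP78, a share near the 7.71% of all genes. It encodes the mitochondrial relative of Hsp104 and read 11.23 and 11.55 in dis3E729K, against 9.88 and 9.06 in wild type (1.92 ± 0.32, SE, adjusted p = 0.0410 in limma's test). The mitochondrial list had a median of 0.10. Of 9 chaperones of the endoplasmic reticulum 0 rose and 3 fell, where 8.15% of all genes fell, with a median of -0.66: EUG1, a protein disulphide isomerase, fell by 1.01, and the J-proteins JEM1 and SCJ1 fell by 1.45 and 0.78. With the replicate number as a block EUG1 and SCJ1 lost their calls (adjusted p of 0.0561 and 0.0765 in limma's test), and JEM1 kept its call. LHS1, an exchange factor of the endoplasmic reticulum, differed by -0.91 and did not pass without the block (adjusted p = 0.0559). The difference between these lists and the cytosolic genes was not tested.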

How the data were processed

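Total RNA of 4 cultures was amplified, labelled with biotin and hybridised to 1-colour Affymetrix arrays, per the labels' protocols. The deposited values are log2 intensities, for which the submitters' processing notes name RMA, Affymetrix Expression Console and Transcriptome Analysis Console. RMA gives all arrays 1 distribution, so a global change of mRNA cannot be seen.

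Of 10928 probe sets, 5498 were tied to 1 S. cerevisiae gene through the platform annotation and the Entrez identifiers of RefSeq assembly R64. The probe set with the highest mean was kept per gene, which left 5449 genes. No coordinates are printed, since no genome build is given in the sources used here. Promoter motifs were not analysed here.

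Groups came from the titles, which call the cultures biological replicates, and p-values rest on 2 cultures per group. All genes were fitted with limma 3.58.1 in R 4.3.3 (lmFit, eBayes, no block, no filter), two-sided, with Benjamini-Hochberg adjustment. Differences are dis3E729K minus wild type, each with limma's moderated SE, on 2 residual plus 2.18 prior degrees of freedom. The procedure was tested on simulated data with independent genes and a spread drawn from limma's own fit. These held no strain or culture effects, so that test says nothing of such effects here. Python 3.11.15, pandas 2.3.3, scipy 1.17.1 and matplotlib 3.10.9 made the paralogue tests and plots.

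The members and lists were chosen with earlier results of these data known. All members are named, and of the other lists at most 4 genes with the largest moderated statistic. HSF1 was named after its values were seen. Alternatives tried are in the closing section.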

Additional observations from a re-analysis of the deposited data

How the results depend on the processing

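Leaving out single arrays gave 0 to 6 chaperone genes called higher, against 9 with all arrays, and 0 to 667 genes of all, against 864. With the replicate number as a block 5 chaperone genes were called higher (HSP42, BTN2, CUR1, HSP104 and APJ1). Of all genes 343 were called in either direction, 199 of them higher. An adjusted p under 0.1 gave 10 chaperone genes higher and 1952 of all genes in either direction, 883 of them higher. The other counts of all genes in this section, like the 864, also hold both directions. The numbers are not known to pair cultures: deviations of same-numbered arrays correlated at 0.08 over all genes and at -0.21 without the marker genes. Over the 37 chaperone genes they correlated at -0.49. With the numbers crossed, an alternative chosen after seeing the data, 7 and 826 were called. An intensity trend, a robust prior, median centring, leaving out dim genes, averaging probe sets or leaving out cross-hybridising ones each called the same 9 chaperone genes, and 0 chaperone genes fell in any setting. Of all changes of sign, none was of a gene called, but groups without overlap cannot change sign when 1 array is left out. HCH1 was 0.0027 with median centring. Without single arrays, 11 genes changed sign, with differences from -0.04 to 0.23 for SSA2, -0.53 to 0.88 for SSA3, -0.06 to 0.24 for AHA1, -0.02 to 0.03 for SSB1, -0.03 to 0.15 for CCT8, -0.33 to 0.05 for YDJ1, -0.11 to 0.09 for HCH1, -0.16 to 0.12 for TCP1, -0.23 to 0.09 for CCT2, -0.24 to 0.10 for CCT3 and -0.08 to 0.02 for CCT4. The cause of these differences was not tested.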
